A study of Mus musculus with 6 samples.

Results

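Wnt signaling was examined through 54 protein-coding genes for Wnt ligands, receptors, antagonists and core pathway proteins. They were chosen by symbol from the 58735 genes of the count table, without use of their values. Earlier results of these data were known when they were chosen. The members were 19 WNT ligands, 10 Frizzled receptors (FZD), the co-receptors LRP5 and LRP6, the R-spondin receptors LGR4, LGR5 and LGR6, 4 secreted Frizzled-related proteins (SFRP), 4 Dickkopf proteins (DKK), the ubiquitin ligases RNF43 and ZNRF3, the feedback inhibitors AXIN2, NKD1 and NOTUM, the proteins APC, AXIN1 and CTNNB1, and 4 TCF/LEF factors. RNA was sequenced from 22Rv1, a human prostate cancer cell line, in 2 groups of 3 libraries. The parental group had received vehicle. The resistant group was the BL-B01D1_R subline, grown in rising concentrations of BL-B01D1, an antibody–drug conjugate against EGFR and HER3 that carries the camptothecin-derived payload Ed-04. All resistant libraries came from 1 selected subline, so the spread between libraries did not cover a repeated selection, and drift cannot be told apart from resistance.

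Counts on genes totaled 13821639 to 17251491 per library, and 3 counts, taken as the limit of detection, corresponded to 0.174 to 0.216 CPM (counts relative to the TMM-scaled library size, in parts per 1e6). Such limits cover counting error only. The luminal keratin KRT8 had 509 to 519 CPM in parental and 528 to 547 CPM in resistant libraries, and HOXB13, a prostate homeobox factor, had 434 to 442 CPM and 304 to 326 CPM. The basal markers summed to no more than 0.298 CPM and the endothelial and leukocyte markers to no more than 0.247 CPM, with KRT5, CDH5 and CD3E at 0 counts. The 5 fibroblast markers summed to 111 to 115 CPM in parental and 39.1 to 43.8 CPM in resistant libraries. LUM held 93.6 to 99.3 CPM and 26.0 to 30.3 CPM of these sums and COL1A1 13.4 to 15.4 CPM and 11.1 to 12.3 CPM, while COL1A2 stayed at or under 0.123 CPM. The 6 neuroendocrine markers summed to 160 to 175 CPM and 146 to 157 CPM, with CHGA lower (37.7 to 40.8 CPM against 7.89 to 8.75 CPM in resistant libraries) and CHGB higher (22.7 to 25.4 CPM against 36.2 to 39.4 CPM). What part these markers have in the values below was not tested.

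In the canonical branch, a secreted WNT protein binds a Frizzled receptor and LRP5 or LRP6. The destruction complex of AXIN and APC then stops marking β-catenin (CTNNB1) for degradation, and β-catenin joins TCF/LEF factors on target genes. DKK proteins block the co-receptors, SFRP proteins bind the ligands, and NOTUM removes the lipid that ligands need for activity. RNF43 and ZNRF3 clear Frizzled receptors from the surface, which R-spondins prevent when bound to LGR receptors. AXIN2, NKD1, NOTUM, RNF43, ZNRF3, LGR5 and LEF1 are known target genes in many tissues. In the prostate, the pathway is known for roles in budding and in tumor progression.

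DKK1 and LGR5 rose about 4.00-fold and 4.02-fold in resistant cells, LEF1 1.62-fold, LGR4 1.36-fold and FZD1 1.29-fold. LGR6, FZD2, DKK2, NOTUM and AXIN2 fell, with parental levels 4.75, 2.36, 2.36, 2.10 and 2.08 times the resistant levels. Of the 54 members, 39 had enough counts to be tested and 15 did not. An FDR of less than 0.05 (edgeR's quasi-likelihood test, adjusted over all 17142 genes tested) was reached by 22 of the 39. By direction, 7 were higher (17.9%, against 17.1% of all genes tested) and 15 were lower (38.5%, against 18.4% of all genes). For both directions together, the share was 56.4% of the tested members and 35.5% of all genes.

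The study's methods also required a log2 fold change beyond 1 in size. That rule was met by 7 of the 39 members, or 17.9%, against 5.37% of all genes. Of the 39 tested members, 2 met it as higher, against 2.53% of all genes, and 5 as lower, against 2.84%. Tested members had a median log2 fold change of −0.15, and all genes tested had 0.00. Abundant genes passed the test more often in this fit, and the median level was 9.66 CPM in tested members and 19.6 CPM in all genes tested. The groups did not overlap in 27 of the 39 tested members, against 44.8% of all genes tested. The resistant libraries lay on the higher side in 7 of the 39, against 22.1% of all genes. In 20 of the 39 they lay on the lower side, against 22.8% of all genes. For each member without overlap the exact permutation test gave a two-sided p = 0.1, the smallest that 3 libraries against 3 allow. Bulk RNA cannot tell fewer cells that express a gene from less RNA per cell.

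**Figure D1:**
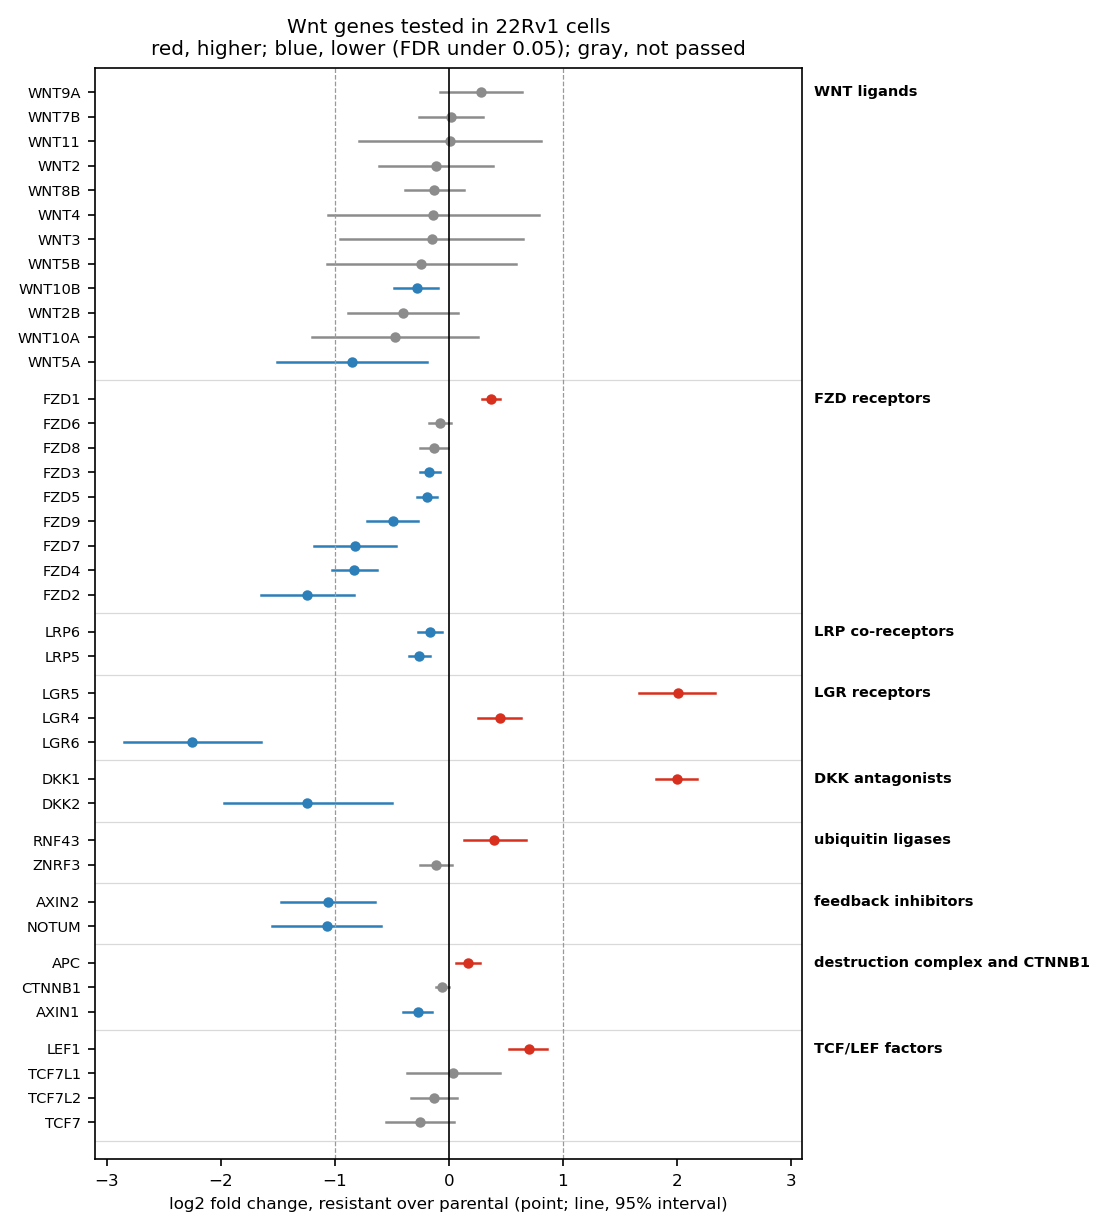
Log2 fold changes of the 39 tested members, resistant over parental, grouped by role (points) with 95% intervals from the standard error and degrees of freedom of the edgeR fit (lines), and dashed lines at an absolute value of 1. LGR5 and DKK1 lie beyond the upper dashed line and LGR6, DKK2, FZD2, NOTUM and AXIN2 beyond the lower one, while the intervals of most WNT ligands cross 0.

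Among the 19 WNT ligands, 12 were tested, 2 passed the FDR threshold, both lower, and 10 did not pass. The share passed was 16.7%, against 35.5% of all genes tested. The summed ligand level was 18.0 ± 0.93 FPKM (SD, n = 3; counts scaled to the unadjusted library total and to the listed gene length in kilobases) in parental and 15.8 ± 2.2 FPKM (SD, n = 3) in resistant cells. WNT10B, a ligand of the canonical branch, held 42.5% ± 1.7 (SD, n = 3) of it in parental and 39.0% ± 1.9 in resistant cells. WNT8B, known from the developing forebrain, followed with 26.5% ± 2.8 and 27.6% ± 1.9 (SD, n = 3). These ligands came before WNT7B, at 8.25% and 9.39%, and WNT9A, at 6.92% and 9.23% of the sum. In resistant cells the shares of WNT7B and WNT9A did not differ from each other beyond their spread (SD 0.21 and 1.1, n = 3). Between the groups, the share of WNT7B was 8.11% to 8.37% in parental and 9.17% to 9.58% in resistant libraries, without overlap.

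WNT10B had 20.9, 19.8 and 19.2 CPM in the parental libraries and 18.0, 13.2 and 18.1 CPM in the resistant libraries. The groups did not overlap, and resistant library 2 stood lowest. Its log2 fold change was −0.28 (SE 0.097, FDR 0.0202). Without resistant library 2 the log2 fold change was −0.15 (FDR 0.25), and without parental library 1 it was −0.25 (FDR 0.0704), so the call rests on single libraries. WNT8B had 10.2, 11.6 and 8.50 CPM in parental and 9.29, 8.50 and 9.98 CPM in resistant libraries, with an interval of −0.38 to 0.13 for its log2 fold change (FDR 0.475).

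WNT5A, a ligand best known from the β-catenin-independent branches, had 2.20, 2.32 and 1.22 CPM in parental and 0.905, 0.884 and 1.42 CPM in resistant libraries. The groups overlapped, since parental library 3 lay under resistant library 3. The log2 fold change was −0.85 (SE 0.33, FDR 0.0375). It lost significance when parental library 1 or 2 or resistant library 1 or 2 was left out, with log2 fold changes of −0.75, −0.70, −0.74 and −0.74 and FDRs of 0.126 to 0.165, and it was −1.07 and −1.11 without parental library 3 and resistant library 3. WNT9A, with a log2 fold change of 0.28 (FDR 0.241), passed only without parental library 3 (0.52, FDR 0.035).

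The remaining tested ligands, WNT2, WNT2B, WNT3, WNT4, WNT5B, WNT7B, WNT10A and WNT11, had log2 fold changes from −0.47 for WNT10A to 0.02 for WNT7B. Intervals were wide for weakly expressed ligands, for example −1.06 to 0.79 for WNT4, so moderate differences in these were not detectable at this depth. The interval of WNT7B, the most abundant of this group, was narrower, at −0.26 to 0.30. WNT2 was uneven among resistant libraries, at 1.93, 2.24 and 4.56 CPM, against 2.84, 3.57 and 3.03 CPM in parental libraries. WNT3A was not tested and had 7, 13 and 10 counts in parental and 1, 3 and 6 counts in resistant libraries. It entered the test in 5 of the alternatives. It passed without parental library 1 or resistant library 3, with log2 fold changes of −1.79 and −2.22 (FDR 0.0286 and 0.0249). It did not pass without resistant library 1 (−1.09, FDR 0.215), without resistant library 2 (−1.52, FDR 0.1) or with no filter on low counts (−1.54, FDR 0.0783). WNT16 had at most 12 counts in any library and WNT1, WNT6 and WNT9B at most 3, while WNT7A and WNT8A were at 0 in all 6 libraries, which allows up to 3 counts in each.

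The Frizzled family was well represented, with 9 of 10 genes tested. FZD1 rose, 6 fell and 2 did not pass the FDR threshold, so that 77.8% of the tested receptors passed, against 35.5% of all genes tested. The summed family level was 77.5 ± 1.2 FPKM (SD, n = 3) in parental and 70.9 ± 1.0 FPKM (SD, n = 3) in resistant cells. Per length, the parental order was FZD6 (19.7 FPKM), FZD5 (13.2), FZD1 (13.0), FZD8 (11.3), FZD3 (7.47), FZD9 (5.70), FZD4 (3.18), FZD2 (2.53) and FZD7 (1.47). In that order FZD5 and FZD1 did not differ beyond their spread (SD 0.16 and 0.29 FPKM, n = 3). FZD10 had no counts.

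FZD1 (ENSG00000157240; hg38 chromosome 7, 91264364 to 91271326, forward strand) had 88.1, 90.8 and 91.3 CPM in parental libraries and 117, 114 and 119 CPM in resistant libraries. Every resistant library lay above every parental one, by more than the spread within either group. The log2 fold change was 0.37 (SE 0.041, FDR 6.03e-10), and omitting any 1 library gave 0.35 to 0.39. The share of FZD1 in the summed Frizzled FPKM was 16.8% ± 0.54 in parental and 23.4% ± 0.23 in resistant cells (SD, n = 3), and in resistant cells it came second after FZD6, at 16.6 FPKM against 11.4 FPKM for FZD5.

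FZD2 (ENSG00000180340; chromosome 17, 44557459 to 44559570, forward strand) had 6.32, 4.47 and 5.19 CPM in parental and 2.41, 2.18 and 2.16 CPM in resistant libraries. The groups were far apart, and the resistant libraries nearly coincided. Its log2 fold change was −1.24 (SE 0.20, FDR 2.96e-06). FZD7, close in sequence to FZD1 and FZD2, had 5.51, 5.42 and 5.98 CPM in parental and 3.50, 2.92 and 3.08 CPM in resistant libraries, with a log2 fold change of −0.82 (SE 0.18, FDR 2.60e-04). These related receptors therefore differed in sign, FZD1 being higher and FZD2 and FZD7 lower, and the ratio of FZD1 to FZD2 in FPKM was 4.23 to 6.16 in parental and 14.7 to 16.7 in resistant libraries.

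FZD4, a receptor for Norrin as well as WNT ligands, had 22.5, 20.6 and 27.1 CPM in parental and 13.0, 13.8 and 12.6 CPM in resistant libraries. All resistant libraries lay well under the parental ones (log2 fold change −0.83, SE 0.097, FDR 2.64e-09). The FZD4 gene overlaps PRSS23 on the other strand by 7232 bases, and PRSS23 was higher in resistant cells (log2 fold change 0.52). FZD9 had 5.58, 5.70 and 5.82 FPKM in parental and 4.25, 3.67 and 4.09 FPKM in resistant libraries (log2 fold change −0.49, SE 0.11, FDR 4.67e-04). Smaller decreases that passed the threshold were found for FZD5 (log2 fold change −0.19, SE 0.044) and FZD3 (−0.17, SE 0.042). FZD6 and FZD8 did not pass, with log2 fold changes of −0.08 (FDR 0.205) and −0.13 (FDR 0.0783), although their groups did not overlap.

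**Figure D2:**
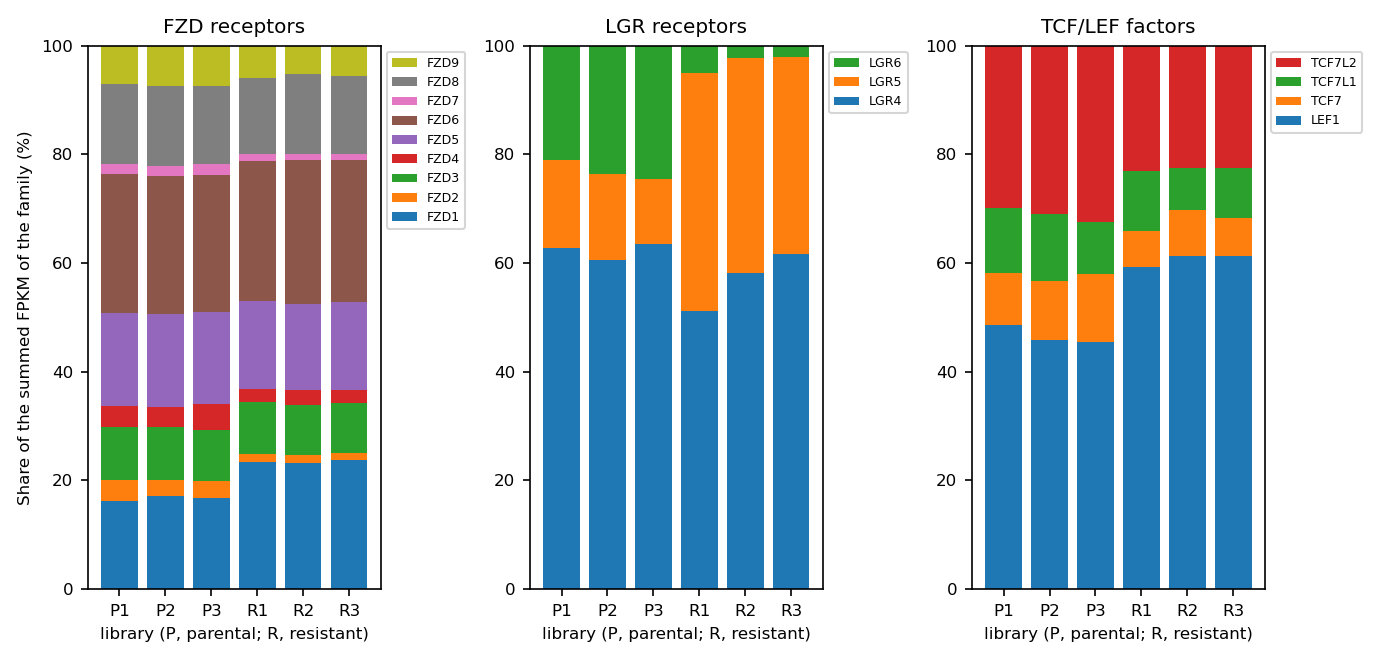
Share of each member in the summed FPKM of its family, in percent, for the 9 detected Frizzled receptors, the 3 LGR receptors and the 4 TCF/LEF factors, with 1 stacked bar per library (P1 to P3, parental; R1 to R3, resistant). The share of FZD1 was 16.2% to 17.2% in parental and 23.2% to 23.7% in resistant libraries, that of LGR5 12.1% to 16.1% and 36.1% to 43.9%, and that of LEF1 45.4% to 48.5% and 59.2% to 61.3%.

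The co-receptors LRP5 and LRP6, which pass the signal on together with Frizzled, were both lower. LRP5 had 91.3, 91.9 and 94.7 CPM in parental and 73.5, 80.6 and 78.7 CPM in resistant libraries, a log2 fold change of −0.26 (SE 0.045, FDR 1.36e-05). LRP6 had 67.2, 67.2 and 69.1 CPM in parental and 58.6, 63.8 and 59.3 CPM in resistant libraries, a log2 fold change of −0.16 (SE 0.051, FDR 0.0102). Both pairs of groups were without overlap, but the differences were small, and LRP6 lost significance without resistant library 1 (−0.14, FDR 0.0699).

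All 3 LGR receptors passed the threshold, against 35.5% of all genes tested, with LGR4 and LGR5 higher and LGR6 lower. LGR5 (ENSG00000139292; chromosome 12, 71439770 to 71586310, forward strand), a stem cell marker in the intestine, had 2.90, 2.86 and 2.16 CPM in parental and 12.4, 10.6 and 9.18 CPM in resistant libraries. The lowest resistant library was above 3 times the highest parental one. Its log2 fold change was 2.01 (SE 0.17, FDR 2.51e-13), and omitting any 1 library gave 1.89 to 2.11. The LGR5 gene overlaps TSPAN8 on the other strand by 2129 bases, and TSPAN8 was lower in resistant cells (log2 fold change −0.41).

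LGR6 (ENSG00000133067; chromosome 1, 202193901 to 202319781, forward strand) had 3.31, 3.75 and 3.82 CPM in parental and 1.21, 0.544 and 0.493 CPM in resistant libraries. These values rest on 57, 63 and 53 counts and on 20, 8 and 8 counts, and the groups were far apart. The log2 fold change of −2.25 (SE 0.30, FDR 4.64e-08) had the largest size among the tested members and ranged from −2.79 to −2.01 with 1 library left out. LGR4, the most abundant of the 3 in both groups, had 13.6, 13.2 and 13.7 CPM in parental and 17.4, 18.9 and 19.0 CPM in resistant libraries (log2 fold change 0.45, SE 0.093, FDR 1.66e-04). The ratio of LGR5 to LGR6 in FPKM was 0.494 to 0.766 in parental and 8.95 to 17.0 in resistant libraries. The summed LGR level was 3.44 ± 0.031 FPKM in parental and 5.07 ± 0.25 FPKM in resistant cells (SD, n = 3).

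RNF43 and ZNRF3, which act against Frizzled receptors, did not move together. RNF43 had 6.27, 9.65 and 9.44 CPM in parental and 11.2, 9.72 and 12.4 CPM in resistant libraries, where parental library 1 stood low and the other parental libraries lay close to resistant library 2. Its log2 fold change of 0.40 (SE 0.14, FDR 0.0173) lost significance without parental library 1 (0.22, FDR 0.227), resistant library 1 (0.40, FDR 0.0508) or resistant library 3 (0.32, FDR 0.114). ZNRF3 had 5.64, 5.08 and 4.91 FPKM in parental and 4.98, 4.78 and 4.61 FPKM in resistant libraries. These groups overlapped, and the interval of its log2 fold change was −0.25 to 0.03 (FDR 0.234).

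DKK1 (ENSG00000107984; chromosome 10, 52314296 to 52318042, forward strand), a secreted inhibitor of LRP5 and LRP6, had 12.6, 9.11 and 10.2 CPM in parental and 41.9, 42.4 and 43.6 CPM in resistant libraries. The resistant libraries nearly coincided, more than 3 times above the highest parental library. The log2 fold change was 2.00 (SE 0.087, FDR 2.73e-22), the smallest FDR among the members, and omitting any 1 library gave 1.89 to 2.15. DKK1 was the most abundant secreted antagonist among the members per length, at 4.83 ± 0.79 FPKM in parental and 19.2 ± 0.41 FPKM in resistant cells (SD, n = 3). The antisense gene PRKG1-AS1 overlaps it by 212 bases and had 11, 6 and 12 counts in parental and 45, 39 and 49 counts in resistant libraries (log2 fold change 2.19), against 141 to 217 and 624 to 707 counts for DKK1.

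DKK2 (ENSG00000155011), which can inhibit or activate the pathway depending on context, went the other way. It had 1.86, 2.02 and 1.15 CPM in parental and 0.965, 0.748 and 0.431 CPM in resistant libraries, from at most 34 counts in any library. The groups did not overlap, but parental library 3 was close to resistant library 1. The log2 fold change was −1.24 (SE 0.36, FDR 0.00628), and without resistant library 3 it was −0.97 (FDR 0.0565). DKK3 and DKK4 had at most 3 and 1 counts in any library.

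None of the 4 SFRP genes was tested. SFRP4 (ENSG00000106483) was at 0 in every parental library and reached 11, 5 and 8 counts in the resistant ones. Measured against 3 counts in each parental library, its mean level was at least 2.63-fold higher. It entered the test when no filter was applied and there had an FDR of 9.49e-05. SFRP4 overlaps EPDR1 on the other strand by 46010 bases, and EPDR1 rose from 328, 267 and 227 counts to 858, 810 and 877 counts (log2 fold change 1.64, FDR 3.52e-22). Whether counting used strand is not given in the sources used here, so reads of both genes cannot be told apart. SFRP1 had 1, 6 and 3 counts in parental and 1, 0 and 0 in resistant libraries, SFRP5 at most 4 counts, and SFRP2 none.

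**Figure D3:**
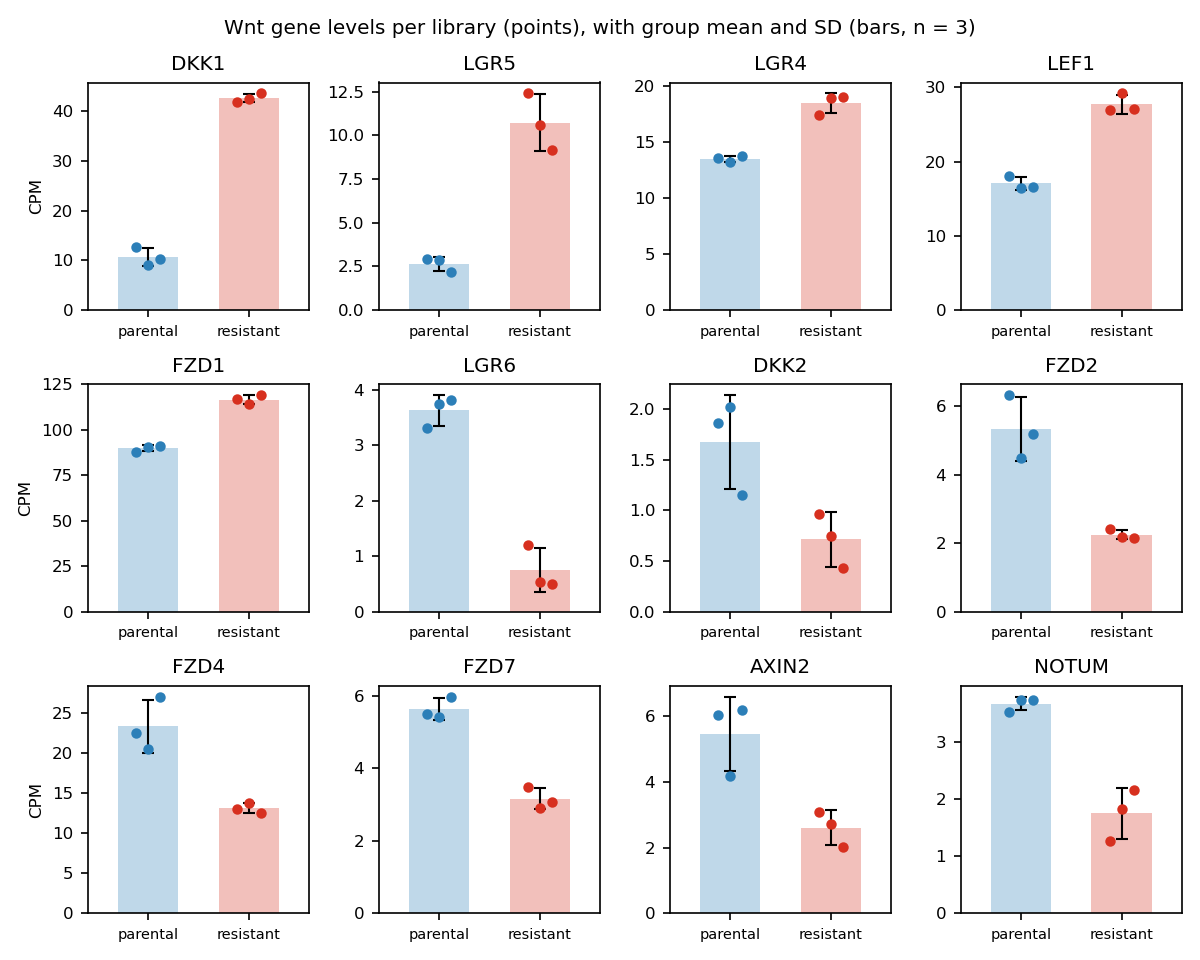
Levels in CPM of 12 members in the 3 parental (blue) and 3 resistant (red) libraries, with bars at the group mean and error bars of 1 SD. Points of the groups do not overlap in any panel: DKK1, LGR5, LGR4, LEF1 and FZD1 are higher and LGR6, DKK2, FZD2, FZD4, FZD7, AXIN2 and NOTUM lower in resistant libraries.

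At the level of β-catenin, differences were small. CTNNB1, the most abundant member, had 434, 426 and 417 CPM in parental and 414, 403 and 411 CPM in resistant libraries, and did not pass the threshold (log2 fold change −0.06, SE 0.028, FDR 0.108). With library size alone in place of TMM it passed, at −0.07 (FDR 0.032). APC, the scaffold that binds β-catenin, had 53.7, 56.7 and 54.4 CPM in parental and 60.7, 58.5 and 65.4 CPM in resistant libraries (log2 fold change 0.17, SE 0.054, FDR 0.0145), and lost significance without resistant library 3 (0.12, FDR 0.131). AXIN1 had 53.7, 56.2 and 61.5 CPM in parental and 51.7, 44.1 and 45.7 CPM in resistant libraries, a decrease without overlap (log2 fold change −0.27, SE 0.061, FDR 4.50e-04). Protein levels and β-catenin stability were not measured in these libraries.

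Of the TCF/LEF factors, LEF1 alone passed the threshold, a share of 25% against 35.5% of all genes tested. LEF1 (ENSG00000138795; chromosome 4, 108047545 to 108168956, reverse strand) had 18.1, 16.5 and 16.6 CPM in parental and 26.9, 29.2 and 27.1 CPM in resistant libraries. The groups were separated by more than their spread, with a log2 fold change of 0.70 (SE 0.081, FDR 2.49e-09) that ranged from 0.66 to 0.74 when 1 library was omitted. LEF1 was the most abundant factor of the family per length in both groups, at 46.6% ± 1.7 of the summed FPKM in parental and 60.6% ± 1.2 in resistant cells (SD, n = 3). TCF7 had 6.79, 7.38 and 8.57 CPM in parental and 5.73, 7.68 and 5.73 CPM in resistant libraries (log2 fold change −0.25, interval −0.55 to 0.05, FDR 0.207). For TCF7L2 and TCF7L1 the intervals were −0.33 to 0.07 and −0.37 to 0.45. TCF7 overlaps SKP1 on the other strand by 2931 bases. SKP1 had 2540 to 3529 counts per library, against 93 to 124 for TCF7. It was higher in resistant cells (log2 fold change 0.19, FDR 7.54e-06), and what part its reads have in the TCF7 values was not tested.

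The feedback inhibitors AXIN2 and NOTUM fell. AXIN2 (ENSG00000168646; chromosome 17, 65528563 to 65561647, reverse strand), a part of the destruction complex widely used as a readout of canonical signaling, had 6.03, 4.17 and 6.20 CPM in parental and 3.08, 2.72 and 2.03 CPM in resistant libraries. NOTUM (ENSG00000185269; chromosome 17, 81952507 to 81961840, reverse strand) had 3.54, 3.75 and 3.75 CPM in parental and 1.27, 1.84 and 2.16 CPM in resistant libraries. For both, all resistant libraries lay under all parental ones. The log2 fold changes were −1.06 (SE 0.20, FDR 4.68e-05) for AXIN2 and −1.07 (SE 0.24, FDR 3.59e-04) for NOTUM. Both kept an FDR of less than 0.05 with any library left out, but AXIN2 was within 1 log2 unit without parental library 1 (−0.97), parental library 3 (−0.97) or resistant library 3 (−0.90), as was NOTUM without resistant library 1 (−0.87). NKD1 was near the limit of detection, with 3, 4 and 4 counts in parental and 2, 1 and 2 counts in resistant libraries.

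The members listed above as known target genes of the pathway therefore did not share 1 direction. Other members, such as DKK1, were not sorted by whether they are target genes. LGR5 and LEF1 rose, AXIN2 and NOTUM fell, RNF43 rose with a call that rested on single libraries, ZNRF3 did not pass and NKD1 was not tested.

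Around the members, 123 other genes of the pathway in 7 lists were read from the same fit. Of these, 97 were tested, 12 were higher and 35 lower at an FDR of less than 0.05. These were 12.4% and 36.1% of the tested genes, against 17.1% and 18.4% of all genes, and the median log2 fold change was −0.05. The share past the FDR threshold in either direction ranged from 30.4% in the cytoplasmic transducers to 75% in the secreted modulators, against 35.5% of all genes. In the list of 24 further target genes, 14 were tested, 3 rose (21.4%) and 7 fell (50%), with a median log2 fold change of −0.17. MSX1, a homeobox factor, fell by 1.73 on the log2 scale (SE 0.32), EPHB2, an ephrin receptor, by 1.58 (SE 0.18), NRCAM, a neuronal adhesion molecule, by 1.19 (SE 0.18) and CD44, the hyaluronan receptor, by 1.10 (SE 0.064). TNFRSF19, a receptor of the TNF family found in LGR5-positive stem cells, rose by a log2 fold change of 1.13 (SE 0.21, FDR 3.55e-05), which was 0.99 without parental library 3. CD44 had 55.6, 53.8 and 52.7 CPM in parental and 25.9, 24.1 and 25.8 CPM in resistant libraries, and TNFRSF19 had 2.44, 2.14 and 1.58 CPM and 4.52, 4.42 and 4.75 CPM.

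Of the 17 nuclear cofactors, 16 were tested, 2 rose and 5 fell (median log2 fold change −0.06). These were 12.5% and 31.2% of the tested cofactors, against 17.1% and 18.4% of all genes tested. BCL9L, which links β-catenin to PYGO proteins, had 255, 257 and 278 CPM in parental and 118, 120 and 117 CPM in resistant libraries, a clear separation with a log2 fold change of −1.15 (SE 0.036, FDR 1.82e-27). Of the 25 cytoplasmic transducers, 23 were tested, 2 rose (8.7%) and 5 fell (21.7%), with a median of −0.02. NKD2, a paralog of NKD1 that binds Dishevelled, had 8.18, 8.57 and 8.21 CPM in parental and 2.47, 3.33 and 4.07 CPM in resistant libraries (log2 fold change −1.34, SE 0.17, FDR 2.02e-08).

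Among 12 R-spondins and other secreted modulators, 4 were tested and 3 fell (75%). These were led by TRABD2A, a protease that cleaves WNT ligands (log2 fold change −1.24, SE 0.30, FDR 0.00116, and −0.96 without resistant library 3). Among 7 genes of WNT secretion, all tested, 1 rose (14.3%) and 3 fell (42.9%). WLS, the carrier of WNT proteins to the surface, had the largest change (log2 fold change −0.68, SE 0.18, FDR 0.00287). Among 12 other receptors, 10 were tested, 1 rose (10%) and 4 fell (40%). ROR1, a receptor for WNT5A, was lower by the largest amount among those that passed (log2 fold change −0.81, SE 0.19, FDR 7.38e-04). The planar cell polarity and calcium branches had 23 tested genes of 26, of which 3 rose (13%) and 8 fell (34.8%). NFATC1, a calcium-responsive factor, was the one past both thresholds (−1.28, SE 0.18, FDR 1.52e-07). The medians of these lists were −0.93, −0.05, −0.02 and −0.05. Of all genes tested, 17.1% were higher and 18.4% lower.

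**Figure D4:**
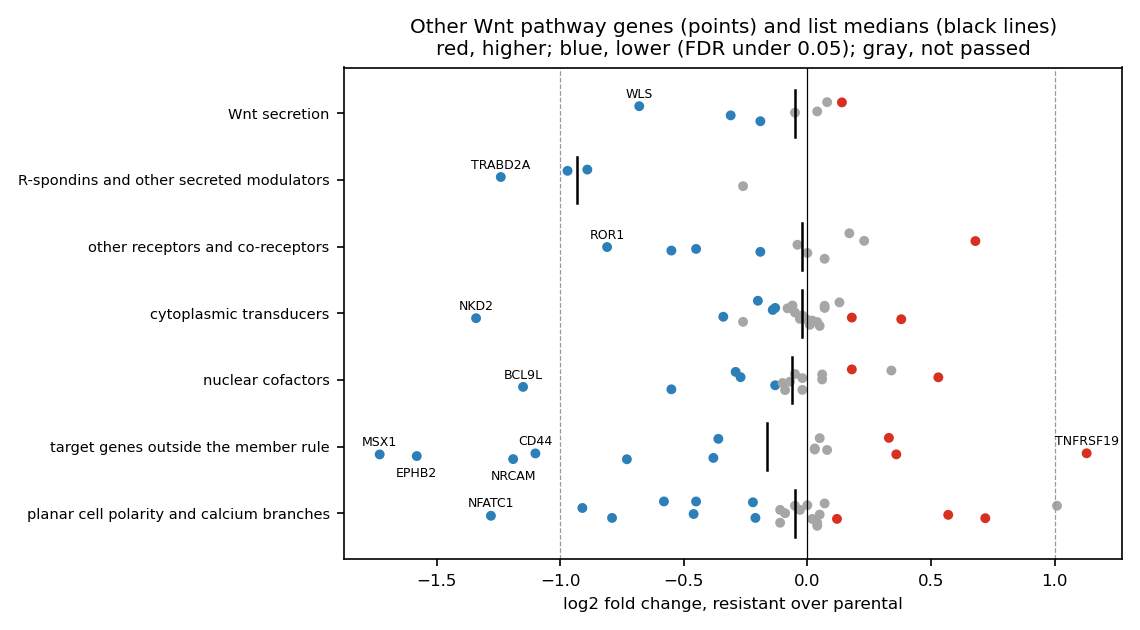
Log2 fold changes, resistant over parental, of the 97 tested genes in 7 lists of other Wnt pathway genes (points, spread vertically at random for display), with the list medians as black lines and dashed lines at an absolute value of 1. The medians lie between −0.17 and −0.02 except for the secreted modulators, at −0.93 from 4 genes, and the named genes include MSX1, EPHB2, NKD2, NFATC1, TRABD2A, NRCAM, BCL9L and CD44 on the lower side and TNFRSF19 on the higher side.

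The members lay on 13 chromosomes, and 4 pairs lay within 100000 bases of each other, all of WNT ligands. WNT3 and WNT9B were 47 bases apart on chromosome 17, WNT6 and WNT10A 6130 bases apart on chromosome 2, WNT1 and WNT10B 6690 bases apart on chromosome 12, and WNT3A and WNT9A 59153 bases apart on chromosome 1. In 3 of these pairs 1 partner was tested and the other had at most 3 counts in any library. WNT10B, for example, had 194 to 361 counts while WNT1 had 0 to 3. In the fourth pair WNT9A had 68 to 111 counts and WNT3A 1 to 13, so neighboring ligands were detected at unequal levels in both groups.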

How the data were processed

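RNA was measured in 3 vehicle-treated 22Rv1 libraries and 3 of the BL-B01D1_R subline. Per the submitters' processing notes, reads were handled with fastp and HISAT2 2.0.5 on hg38, and the authors deposited raw featureCounts (1.5.0-p3) counts per gene, without normalization. Gene length, another quantity in the deposited table, was used here for FPKM. Annotation release and strand setting are not given in the sources used here. The labels name mouse as organism, but the gene identifiers are human. All per-sample columns were used.

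Genes passing edgeR's filterByExpr (minimum count 10) were compared by the quasi-likelihood test with TMM scaling (edgeR 4.0.16, R 4.3.3), two-sided, with Benjamini-Hochberg adjustment over 17142 genes. The test was checked on simulated counts, where it recovered 97 of 98 larger and 68 of 100 smaller changes, with 11 false calls. That simulation changed far fewer genes than passed here and gave every gene the same dispersion (variation beyond counting error). The rate of false calls in these data was therefore not tested. The SE is the log2 fold change over the root of F, and intervals are 95%. Separate cultures are not stated, so p-values measure the spread between these libraries, whose replicate pairs differed by more than sampling noise (chi-square per degree of freedom 1.79 to 2.48). Members and lists were chosen with earlier results of these data known. Named members were those past FDR 0.05 and a log2 fold change of 1 in size, the 15 largest changes past the FDR, the highest FPKM of each role and a preset group of pathway genes. Named list genes were those past both thresholds, or else the largest change past the FDR. WNT2, WNT3A, WNT4, WNT7B, WNT8B, WNT9A, WNT10A, FZD8 and others were named after their values were seen, to account for every member. Alternatives were limma-voom and limma on log2(FPKM + 1) (limma 3.58.1), DESeq2 1.42.0, 2 other scalings, 2 other filters, the replicate block and leaving out each library.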

Additional observations from a re-analysis of the deposited data

How the results depend on the processing

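None of the 22 members past the FDR threshold changed sign under the 14 alternatives run, nor did FZD6, ZNRF3, CTNNB1 or TCF7. Among other members that did not pass, WNT2, WNT3, WNT4, WNT5B, WNT7B, WNT11 and TCF7L1 changed sign when some library was left out. The log2 fold change of WNT2, for example, then ranged from −0.60 to 0.13. Of the 84 counts recomputed, 82 stayed within 1.5 times. The 5 members lower past both thresholds became 0 with limma on log2(FPKM + 1), a scale that understates changes of weakly expressed genes, and 3 with at least 10 counts in every library, where DKK2 and LGR6 were not tested. With 1 library left out, members past the FDR threshold numbered 5 to 8 higher and 13 to 15 lower, members past both thresholds 2 higher and 4 to 5 lower, and other pathway genes 9 to 12 higher and 30 to 34 lower. DESeq2 lost RNF43, WNT10B and WNT5A (FDR 0.0664, 0.0705 and 0.105), and limma on log2(FPKM + 1) lost those and APC and LRP6 (FDR 0.163 and 0.0518). limma-voom and the upper quartile kept all 22. Library size alone added CTNNB1 and FZD8, and moved the median of all genes from 0.004 to −0.012.

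Same-numbered libraries of the groups did not deviate together (correlation of deviations −0.0196 to −0.00806 across genes), so the numbers were not taken to pair the samples. With the replicate block, 21 of the 22 members kept their call, and WNT5A had a log2 fold change of −0.83 (FDR 0.062). WNT3A, SFRP4 and NKD1, with at most 13 counts in any library, were limited by depth.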
